A study of Mus musculus with 15 samples.

Results

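The genes described here encode the machinery that acidifies the lysosome and digests its contents in bone marrow-derived macrophages (BMDMs). They were taken by symbol from the protein-coding genes of GENCODE M21 on the mouse build mm10: every Atp6v and Lamp gene whose stem is followed by a digit, and the cathepsin genes written Cts plus a single letter. The rule found 41 of 21938 gene entries, made up of 9 Atp6v0 genes, 14 Atp6v1 genes, 4 Lamp genes and 14 cathepsin genes. Atp6v1fnb was included by its symbol, although it is named as a neighbour of Atp6v1f and is not known as a pump subunit. For each gene the measured quantity was the covered length, the number of base pairs (bp) of the gene body plus 5 kb upstream that lay inside a called region.

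The regions came from CUT&RUN, in which permeabilised cells are given an antibody, a tethered nuclease cuts the chromatin around the bound antibody, and the fragments set free are read by sequencing. The histone variant H3.3 was profiled through an HA tag in BMDMs of knock-in mice carrying HA-tagged H3f3b (group H3.3-HA). Acetylation of H3 lysine 27 (H3K27ac, a mark of active promoters and enhancers) and trimethylation of H3 lysine 36 (H3K36me3, a mark laid down over transcribed gene bodies) were profiled in WT and cKO BMDMs. WT mice carried floxed alleles of both H3.3 genes (H3f3a fl/fl H3f3b fl/fl) without Cre. The study gives its cKO mice as the same floxed alleles with LysM-Cre on both alleles (LysM cre/cre). This Cre is driven from the Lyz2 locus and acts in macrophages and granulocytes. Cre and its insertion at Lyz2 were present only in cKO mice, so their part cannot be told apart from loss of H3.3. All mice were young adults on a C57BL/6 background, and marrow was cultured for 6 to 8 days in medium conditioned by L929 cells. Each of the 5 groups had 2 libraries. The labels call the WT and cKO libraries biological replicates but do not say whether they came from separate animals or cultures, so p-values measure only the spread between these libraries.

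The vacuolar proton pump (V-ATPase) has a cytosolic V1 sector that hydrolyses ATP and a membrane V0 sector that carries protons into the lumen, and several subunits exist as isoforms of different tissues. Cathepsins are proteases that mature and work in the acid lumen, most with a cysteine in the active site and others with an aspartate or a serine. LAMP proteins are heavily glycosylated proteins of the lysosomal membrane. In macrophages this compartment degrades ingested particles and prepares antigens, and the transcription factors TFEB and TFE3 act on many of its genes through promoter elements called CLEAR.

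The libraries held 5365319 to 29988098 sequenced tags and 35018 to 61764 regions. Regions of the WT H3K27ac libraries covered 89.6 and 74.8 Mb of the genome in total, against 46.2 and 62.0 Mb in the cKO-labelled libraries. For H3K36me3 the first cKO-labelled library stood apart, with 19.3% of its tags in regions and 90.7 Mb covered, whereas the other 3 libraries had 46.5 to 50.2% and 163 to 170 Mb. A region carried by fewer cells and a weaker mark in every cell cannot be told apart in such bulk profiles. Macrophage markers had a region in 8 or 9 of 9 genes in every library. The lists could not settle whether the targeted genes were deleted. Exon 2 of H3f3a, the floxed exon, was covered by no region in any of the 10 lists and therefore checked nothing. Exon 4 of H3f3b, one of its floxed exons, was covered over 1065 and 1182 bp by H3K27ac regions and over 1070 and 1122 bp by H3K36me3 regions in the cKO-labelled libraries. In the WT libraries that exon was covered over 0 and 0 bp by H3K27ac regions and over 645 and 860 bp by H3K36me3 regions. The study reported loss of H3.3 in its cKO BMDMs by PCR, qRT-PCR, RNA-seq and western blot. Its notes also describe an H3f3b deletion that was partial in some cKO samples. At Lyz2, where the Cre is inserted, H3K27ac covered 9414 and 8837 bp in WT and 2811 and 2435 bp in the cKO-labelled libraries, so the groups differed at that locus. The libraries are called cKO-labelled below, and each direction rests on those labels.

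In WT BMDMs most of these genes carried both marks. A region lay in the window in both libraries at 30 of 41 genes for H3K27ac, where 46.2% of all protein-coding genes had one, and at 30 of 41 for H3K36me3, where the share of all genes was 48.7%. The cKO-labelled libraries gave 31 genes for H3K27ac (45.0% of all genes) and 30 for H3K36me3 (43.5%). H3.3-HA regions were found in both libraries at 29 of 41 genes (44.2% of all genes). In all 10 lists a region was found at 21 of the 41 genes, and Lamp5, a LAMP protein best known from neurons, had none in any list.

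The genes without marks were mainly isoforms known from other tissues. Among the 7 pump isoforms best known from kidney, epididymis, testis or brain, 2 had a WT H3K27ac region in both libraries and 2 a WT H3K36me3 region in both, against 15 of the other 16 pump genes for either mark. Atp6v0a4 and Atp6v1b1, the a4 and B1 subunits of acid-secreting epithelia, had no H3K27ac region in any library, and neither did Atp6v0e2, Atp6v1c2, Ctsf, Ctsw or Lamp5. Summed over the isoforms of other tissues, the mean WT covered length came to 4.72 kb for H3K27ac and 4.58 kb for H3K36me3. The corresponding sums of the other pump genes were 171 and 339 kb. These other genes include Atp6v0d2, an isoform abundant in osteoclasts, with WT means of 16226 bp for H3K27ac and 21220.5 bp for H3K36me3. They also include Atp6v1fnb, which is not known as a pump subunit.

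**Figure D1:**
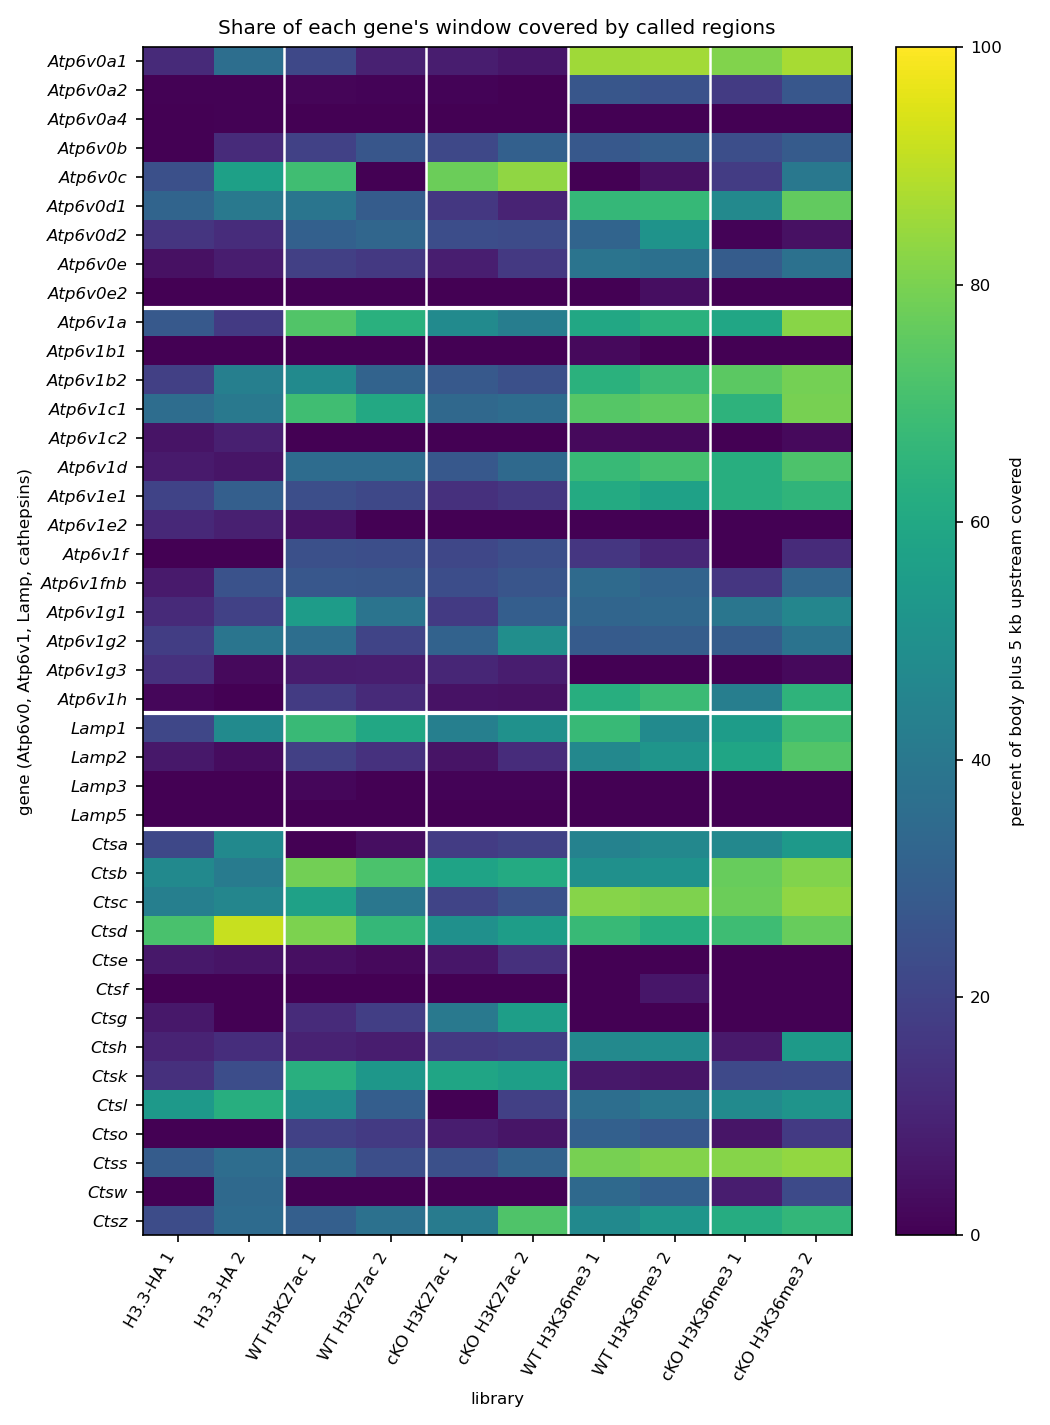
Share of each gene's window (body plus 5 kb upstream) covered by called regions, in percent, with 1 row per gene (Atp6v0, Atp6v1, Lamp and cathepsin genes, separated by white lines) and 1 column per library. Darker colours stand for less coverage. Lamp5 is empty in all 10 columns, and Atp6v0d2 is far darker in the cKO than in the WT H3K36me3 columns.

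H3.3-HA regions lay over the 3′ parts of several cathepsin genes, and those of Ctsb and Ctsd were among the widest in the genome. The longest H3.3-HA covered length was found at Atp6v0d1, the V0 subunit that joins the membrane ring to the central stalk, with 15073 and 18797 bp in the 2 libraries. Ctsc, the dipeptidyl peptidase that activates granule serine proteases, had 16351 and 17332 bp, and Atp6v0a1, the proton-channel subunit a1, had 7172 and 21501 bp. The libraries were close at Ctsc and far apart at Atp6v0a1. At Ctsb (chr14:63122462-63145923), which encodes the cysteine protease cathepsin B, a single region of 14098 bp in the first library was the 2nd widest of 50456, and one of 15996 bp in the second was the 7th widest of 49099. Both began inside the gene and ran past its end by 3022 and 4121 bp. At Ctsd (chr7:142375911-142388038), which encodes the aspartic protease cathepsin D, the widest regions measured 11228 and 15656 bp and ranked 12th and 9th by width. Ctsl, encoding the endopeptidase cathepsin L, followed with 7744 and 9084 bp at ranks 59 and 88.

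The end of the gene was covered by H3.3-HA in both libraries at 8 genes, namely Ctsa, Ctsb, Ctsd, Ctsk, Ctsl, Ctsz, Lamp1 and Atp6v1g1, where the share of all protein-coding genes was 5.35%. Counting the first library alone gave 13 genes and the second alone gave 10. At Lamp1, the most abundant lysosomal membrane glycoprotein, the widest regions of 6002 and 7364 bp lay almost wholly beyond the gene end, over 5653 and 7067 bp. Other genes overlap the bodies of Ctsa, Ctsb (Fdft1), Ctsd (Gm49369), Ctsz (Nelfcd) and Lamp1 (Grtp1). Regions there cannot be assigned to a single gene. The gene start was covered in both H3.3-HA libraries at 2 genes, Atp6v1g2 and Ctsh, against 2.90% of all genes. Over the last 10% of the body, the mean covered share was 26.98% and 34.30% for the lysosomal genes and 7.03% and 9.05% for all protein-coding genes of at least 2000 bp. These end positions were examined after the region lists had been inspected. No untagged HA control list was analysed here, so the background of the HA antibody at these genes was not measured.

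**Figure D2:**
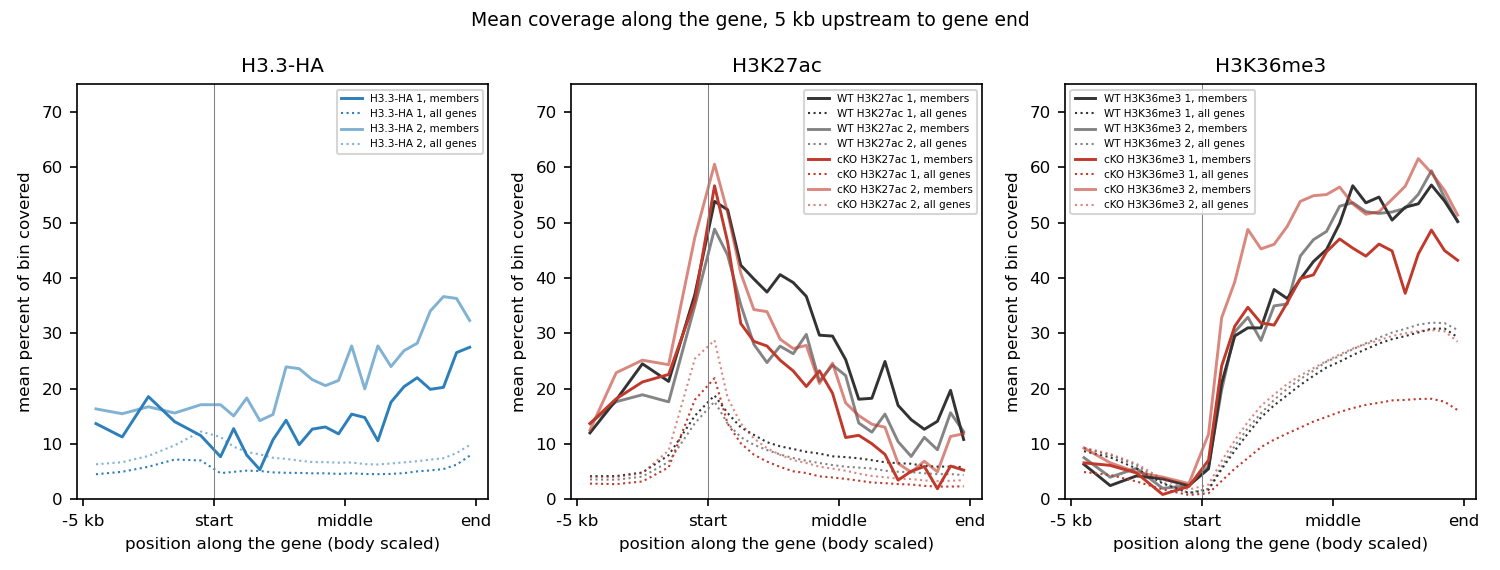
Mean percent of each position covered by regions, from 5 kb upstream to the gene end with the body scaled to 20 bins, for the 41 lysosomal genes (solid) and all protein-coding genes of at least 2000 bp (dotted), with 1 line per library. H3.3-HA is highest near the 3′ end of the lysosomal genes, H3K27ac peaks at the start and H3K36me3 is nearly absent from it.

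To ask how the marks differed between cKO-labelled and WT libraries, their covered length was tested with limma on log2(covered bp + 500). All genes whose window held a region in 1 or more of the 4 libraries compared were included. No gene passed an adjusted p of 0.05 for either mark. For H3K27ac the count was 0 of 12767 genes (0%), with 3734 genes at an unadjusted p under 0.05, and 34 of the lysosomal genes were tested, 11 of them at an unadjusted p under 0.05. For H3K36me3 it was 0 of 11975 genes (0%), with 1300 at an unadjusted p under 0.05, and 35 lysosomal genes were tested with 3 at that level. Leaving out the second cKO-labelled H3K36me3 library gave 13 calls among the 34 lysosomal genes tested, 2 above and 11 below WT, where 53.6% of all genes tested were called, a larger share. Leaving out the first gave 1 call (4.72% of all genes), and leaving out the second WT H3K27ac library gave 1 (879 of 12564 genes). The values below are therefore descriptions of the libraries. With 2 libraries against 2, an exact two-sided permutation test of a single gene cannot go below p = 0.333.

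H3K27ac covered less of most pump genes in the cKO-labelled libraries. Both lay below WT at 14 of the 16 pump genes outside the isoforms of other tissues, where 22.3% of all genes did so. The 14 include Atp6v1fnb, not known as a pump subunit, whose values came from the same region as those of Atp6v1f. Only Atp6v0d1, Atp6v1c1, Atp6v1g1 and Atp6v1h of the 14 stayed below once the libraries were scaled to equal total covered length. The summed length over the 41 genes was 327 and 260.2 kb in WT and 199 and 225 kb in the cKO-labelled libraries. Both cKO-labelled libraries lay below both WT libraries at 21 of 41 genes, where 22.3% of all genes did so, and above them at 7 genes (10.1% of all genes), or 11 genes without the first WT library (15.7%). The median log2 difference was -0.44 over the lysosomal genes tested and -0.29 over all genes tested. Because the cKO-labelled lists covered less of the genome, the ranges were also compared after scaling each library to the same total covered length. The median over all genes then moved to 0.19, and 7 genes lay below WT (13.2% of all genes) and 17 above (21.9%). The 7 genes below WT on both scales were Atp6v0d1, Atp6v1c1, Atp6v1g1, Atp6v1h, Ctsc, Ctsl and Ctso. Ctsb, Ctsd, Lamp1, Atp6v1d, Atp6v1f and Atp6v1fnb turned from below to above when scaled.

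The V1 sector held the longest H3K27ac domains and the greatest differences in length. At Atp6v1a (chr16:44085402-44139705), the catalytic subunit that binds and splits ATP, H3K27ac covered 43279 and 37755 bp in WT and 28473 and 25190 bp in the cKO-labelled libraries. The groups did not overlap, but they did after scaling. Atp6v1c1, whose product steadies the union of V1 with V0, had 24685 and 21415 bp in WT and 12014 and 12579 bp in cKO-labelled libraries, a 1.87-fold shorter mean (log2 difference -0.88, SE 0.15, limma adjusted p = 0.0668, 0.0188 to 0.322 over 15 alternatives). Atp6v1h, the regulatory H subunit, had 17100 and 11484 bp against 4745 and 4500 bp, a 3.09-fold shorter mean (log2 difference -1.50, SE 0.26, limma adjusted p = 0.0664, 0.0445 to 0.293 over 14 alternatives). At both genes the groups were apart on either scale. 

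Other V1 subunits had smaller gaps of the same direction. Atp6v1b2, the nucleotide-binding B subunit of most tissues, had 14439 and 9621 bp in WT and 8449 and 7385 bp in cKO-labelled libraries. Atp6v1e1, part of the peripheral stalk, had 8013 and 7215 bp against 4669 and 5416 bp. The groups of both genes overlapped after scaling. Atp6v1g1, its stalk partner, had 6063 and 4231 bp against 1876 and 3286 bp and stayed apart on both scales, while over the gene body alone its groups overlapped. Atp6v1d, of the central rotor, had 9175 and 9173 bp against 7107 and 8896 bp, which left the groups adjacent and put the cKO-labelled libraries above WT when scaled.

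In the V0 sector the direction differed between subunits. Atp6v0d1 had 18044 and 13581 bp of H3K27ac in WT and 7503 and 4698 bp in cKO-labelled libraries, a 2.59-fold shorter mean (log2 difference -1.33, SE 0.31, limma adjusted p = 0.0888, 0.0542 to 0.368 over 15 alternatives). Atp6v0a1 had 12756 and 5503 bp against 4700 and 3660 bp, and Atp6v0e, a small membrane subunit, had 7817 and 6860 bp against 3518 and 6827 bp. Within 1 kb of the start the fitted difference of Atp6v0d1 turned to 0.48 and that of Atp6v0a1 to 2.32, so the shorter length lay away from the start. At Atp6v0c, which encodes the proteolipid of the rotating proton ring, the cKO-labelled libraries held 8402 and 9022 bp. The WT libraries held 7526 and 0 bp, and without the second of them the log2 difference was 0.20 in place of 2.20.

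Among the Lamp and cathepsin genes, H3K27ac covered long stretches of Lamp1, Ctsb and Ctsd in both genotypes. It covered little of Ctsl and Ctso in the cKO-labelled libraries. Lamp1 had 14331 and 12735 bp in WT and 9105 and 10744 bp in cKO-labelled libraries. Lamp2, which also serves chaperone-mediated autophagy, had 11289 and 8666 bp against 3174 and 7642 bp. The groups were apart for both genes, but Lamp2 overlapped and Lamp1 turned when scaled. Ctsb had 22437 and 20428 bp in WT, the 3rd longest of the 41 genes, and 16516 and 17366 bp in cKO-labelled libraries, and Ctsd had 13759 and 11419 bp against 8615 and 9532 bp. Both turned to longer in cKO-labelled libraries after scaling. Ctsc had 21682 and 15027 bp against 7723 and 9472 bp, a 2.13-fold shorter mean (log2 difference -1.04, SE 0.26, limma adjusted p = 0.0972, 0.0730 to 0.491 over 15 alternatives). Ctsl had 8058 and 4948 bp against 0 and 3107 bp. Ctso, a little-studied cysteine cathepsin, had 5625 and 4968 bp against 2311 and 1622 bp (log2 difference -1.24, SE 0.26, limma adjusted p = 0.0809, 0.0661 to 0.571 over 15 alternatives). These last 3 genes kept their order on both scales.

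A few cathepsin genes had longer H3K27ac in the cKO-labelled libraries. Scaling could not turn them, because both cKO-labelled lists covered less of the genome than both WT lists and were scaled up against them. Ctsa, the serine carboxypeptidase that protects lysosomal beta-galactosidase and neuraminidase, had 0 and 501 bp in WT and 2315 and 2596 bp in cKO-labelled libraries (log2 difference 2.06, SE 0.45, limma adjusted p = 0.0815, 0.0188 to 0.278 over 15 alternatives). Ctsz, a carboxypeptidase, had 5023 and 6163 bp against 6899 and 12013 bp. Ctsh, an aminopeptidase, had 2539 and 2177 bp against 4456 and 4907 bp, a 1.99-fold longer mean. The groups of these 3 genes did not overlap. Ctse, an aspartic protease best known from epithelia, had 1729 and 1002 bp in WT and 2520 and 5802 bp in cKO-labelled libraries. Ctsg, a serine protease of neutrophil granules, had 935 and 1429 bp in WT and 3114 and 4310 bp in cKO-labelled libraries, with its groups overlapping over the gene body alone. Of 7 neutrophil and granulocyte precursor genes, 1 and 2 had an H3K27ac region in WT and 3 and 2 in the cKO-labelled libraries, with summed lengths of 1.11 and 1.00 kb against 1.70 and 2.16 kb, and their part in the Ctsg values was not tested. 

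Regions found in 1 genotype only were then located. A region present in both WT and neither cKO-labelled library was found at 10 genes for H3K27ac (21.7% of all genes) and at 3 for H3K36me3 (12.9%). Regions present in both cKO-labelled and neither WT library were found at 4 genes for H3K27ac (10.1% of all genes) and at 0 for H3K36me3 (4.62%). These counts depended on single libraries. For H3K27ac the gained count was 10 without the first WT library (16.1% of all genes), 14 without the first cKO-labelled library (26.8%) and 7 without the second (22.5%), and the lost count was 18 without the first WT library (30.6%). For H3K36me3 the gained count was 1 to 5 with 1 library left out (6.69 to 17.9% of all genes). The lost count was 5 without the first WT library (23.0%), 5 without the second (21.9%) and 10 without the second cKO-labelled library (23.3%). The shares of all genes were higher with a library left out as well. None of the lost H3K27ac regions covered a gene start. Atp6v0a1 had 6 of them and Atp6v1h 5, and most lay in introns. One at Ctsl, of 1338 bp (chr13:64360273-64361610), was entirely exonic, and so was one of 784 bp at Atp6v1h (chr1:5098325-5099108). Of the gained regions only that of Ctsa covered a gene start. It spanned 2596 bp (chr2:164832611-164835206), with 262 bp before the start, 1650 bp in exons and 684 bp in introns of Ctsa. The other gained regions, at Atp6v0d2, Ctse and Ctsz, measured 704, 880 and 709 bp inside the gene bodies. A start-covering region at Ctsa cannot be assigned to Ctsa alone, since its window also holds Spata25, Neurl2 and Pltp.

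The position of H3K27ac along these genes was compared next. The start itself was covered in both WT libraries at 16 of 41 genes, where the share of all genes was 11.4%, and in both cKO-labelled libraries at 23, where it was 23.9%. It was covered in both cKO-labelled and neither WT library at 8 genes, namely Atp6v0a1, Atp6v0d1, Atp6v1b2, Atp6v1d, Ctsa, Ctsb, Ctse and Ctsh (11.8% of all genes), and in both WT and neither cKO-labelled library at Atp6v0a2 (1.19%). At 5 of the 8 genes this was a short shift of a region edge. The WT regions began 107 and 89 bp inside the body of Atp6v0d1, 187 and 91 bp inside Atp6v1b2, 119 and 92 bp inside Atp6v1d, 115 and 112 bp inside Ctsb, and 49 and 77 bp inside Ctse. At Atp6v0a1 they began 2500 and 3120 bp inside. The first H3K27ac base of the body was nearer the start in both cKO-labelled libraries at 8 of 26 genes with a region in all 4, where 34.6% of all such genes showed this order, and farther at 1, where 9.98% did. Over the first 25% of the body the mean covered share was 45.2% and 36.2% in WT and 38.2% and 44.3% in cKO-labelled libraries, so the groups overlapped. Over the last 50% it was 17.5% and 13.0% in WT and 6.82% and 10.5% in cKO-labelled libraries, and the groups did not overlap. All protein-coding genes showed the same order over the last 50%, with 6.51% and 5.01% in WT and 2.74% and 3.85% in cKO-labelled libraries. 

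Promoter sequences were examined where the mark at the start differed. Promoter windows from RefSeq (GRCm38.p6, 250 bases before to 50 after a start) were found for 31 of the 41 genes, 36 windows in all. Ctsw, Atp6v1h, Atp6v1c1, Atp6v0d2, Atp6v1b2, Atp6v0a2, Ctsb, Atp6v1g1, Ctsh and Ctse had none. H3K27ac overlapped 5 of these windows in both cKO-labelled and neither WT library, at Atp6v0a1, Atp6v0d1, Atp6v1d and Ctsa (8.14% of all 32851 promoter windows), and 0 in both WT and neither cKO-labelled library (1.41%). Searched on both strands, the 8 letters GTCACGTG of the CLEAR element were found in 5 of 36 windows and in 2.25% of all windows. CACGTG, the E-box within it, was found in 9 of 36 and in 7.15% of all. GAGGAAGT, the type of sequence bound by the macrophage factor PU.1, was found in the windows of Ctsc and Ctss and in 3.20% of all. The 5 windows with the CLEAR letters are printed because their H3K27ac overlap differed. Those of Ctsa and Atp6v0d1 overlapped H3K27ac in both cKO-labelled and neither WT library, and those of Lamp1, Ctsd and Atp6v0b in all 4 libraries. At Atp6v0d1 this was a short shift of a region edge, since the WT regions began 107 and 89 bp inside the body. Capitals mark GTCACGTG or CACGTG on either strand, and each sequence is read 5′ to 3′ in the direction of the gene.
Ctsa promoter, chr2:164833523-164833822, plus strand: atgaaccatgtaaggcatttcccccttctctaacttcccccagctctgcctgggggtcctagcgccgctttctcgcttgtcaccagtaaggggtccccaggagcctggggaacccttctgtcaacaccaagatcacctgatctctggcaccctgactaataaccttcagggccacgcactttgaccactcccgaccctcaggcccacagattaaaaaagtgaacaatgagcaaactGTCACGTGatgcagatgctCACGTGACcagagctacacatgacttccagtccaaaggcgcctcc
Atp6v0d1 promoter, chr8:105566015-105566314, minus strand: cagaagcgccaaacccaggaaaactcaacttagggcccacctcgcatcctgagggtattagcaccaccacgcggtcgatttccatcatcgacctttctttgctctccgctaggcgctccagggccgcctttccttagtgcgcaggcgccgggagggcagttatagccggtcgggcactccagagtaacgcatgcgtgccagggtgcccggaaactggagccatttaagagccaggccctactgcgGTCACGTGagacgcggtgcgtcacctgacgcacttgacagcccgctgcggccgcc
Lamp1 promoter, chr8:13158911-13159210, plus strand: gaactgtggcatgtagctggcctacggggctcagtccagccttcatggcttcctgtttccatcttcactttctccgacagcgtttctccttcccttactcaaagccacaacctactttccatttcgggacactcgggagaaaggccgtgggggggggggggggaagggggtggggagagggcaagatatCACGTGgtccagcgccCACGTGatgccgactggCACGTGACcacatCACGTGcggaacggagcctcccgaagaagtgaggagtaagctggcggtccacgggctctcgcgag
Ctsd promoter, chr7:142387778-142388077, minus strand: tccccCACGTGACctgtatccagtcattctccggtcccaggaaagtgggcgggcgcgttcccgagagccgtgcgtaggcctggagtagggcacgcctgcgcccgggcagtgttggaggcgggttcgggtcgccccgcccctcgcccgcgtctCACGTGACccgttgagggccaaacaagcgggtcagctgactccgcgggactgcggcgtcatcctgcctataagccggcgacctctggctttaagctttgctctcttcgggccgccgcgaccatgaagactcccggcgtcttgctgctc
Atp6v0b promoter, chr4:117887280-117887579, minus strand: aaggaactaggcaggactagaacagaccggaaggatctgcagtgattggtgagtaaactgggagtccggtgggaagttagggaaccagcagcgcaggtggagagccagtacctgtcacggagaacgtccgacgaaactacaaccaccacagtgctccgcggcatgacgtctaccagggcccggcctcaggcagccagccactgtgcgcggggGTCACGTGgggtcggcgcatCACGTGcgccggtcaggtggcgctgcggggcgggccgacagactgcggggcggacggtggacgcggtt
The Ctsa window holds the CLEAR letters on both strands around its RefSeq start, and the Lamp1 window holds a run of 4 E-boxes. A match describes the letters only.

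H3K36me3 was longer at many of these genes in the cKO-labelled libraries, while over all genes shorter values were more frequent. The summed length was 507 and 524 kb in WT and 442 and 564 kb in the cKO-labelled libraries. The groups also differed in depth, with 15086387 and 14027132 tags in WT and 23782914 and 23503055 in the cKO-labelled libraries. The part of depth in the H3K36me3 lengths was not tested and cannot be told apart from genotype. Both cKO-labelled libraries lay above both WT libraries at 12 of 41 genes, where 4.28% of all genes did so, and below them at 3, where 20.6% of all genes did so. After scaling to equal total length the counts were 22 above (15.6% of all genes) and 3 below (16.0%), the same 3 as before. The 12 genes above could not leave their group. Both cKO-labelled lists covered less in total than both WT lists, so scaling only raised them against WT. The first cKO-labelled library, whose list covered the least of the genome, lay above both WT libraries at these 12 genes by the way they were chosen. Without that library the count above was 23 (22.5% of all genes). The count below was 17 without the second cKO-labelled library (42.5%), 7 without the first WT library (27.4%) and 8 without the second (24.5%). The median log2 difference was -0.03 over the lysosomal genes tested and -0.43 over all genes tested. None of these differences passed the limma test.

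Lamp2 and Ctsb had the greatest differences above WT. At Lamp2 (chrX:38401357-38456454) H3K36me3 covered 27961 and 31370 bp in WT and 35350 and 43869 bp in cKO-labelled libraries, a 1.34-fold longer mean (log2 difference 0.41, SE 0.25, limma adjusted p = 0.621, 0.172 to 1 over 15 alternatives). Ctsb had 14299 and 14499 bp in WT and 21892 and 23123 bp in cKO-labelled libraries, a 1.56-fold longer mean (log2 difference 0.63, SE 0.22, limma adjusted p = 0.460, 0.0196 to 0.999 over 15 alternatives). The gap between the Ctsb groups exceeded the difference within either group. The Ctsb window also holds part of Fdft1, and regions there cannot be assigned to either gene. The windows of Atp6v1a and Ctsz likewise hold parts of Naa50 and Nelfcd. Those of Atp6v1h, Atp6v1b2, Atp6v1e1 and Atp6v1d hold parts of Rgs20, Slc18a1, Slc25a18 and Eif2s1. Regions of either mark in such shared stretches cannot be assigned to a single gene.

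At other cathepsin and pump genes the differences above WT were smaller. Ctsz had 7843 and 8717 bp in WT and 10261 and 10926 bp in cKO-labelled libraries, Ctsl had 6001 and 6644 bp against 7900 and 8548 bp, and Ctsd had 11544 and 10674 bp against 11839 and 13151 bp. The groups of these 3 genes were apart, those of Ctsd by the narrowest distance. For the pump, Atp6v1b2 had 19189 and 20537 bp against 22537 and 23836 bp. Atp6v1e1 had 20420 and 19130 bp against 20942 and 21929 bp, and Atp6v1g1 had 3568 and 3654 bp against 4330 and 5053 bp. All 3 are V1 subunits whose H3K27ac was shorter in the same genotype. Atp6v0c, of the V0 ring, had 0 and 501 bp in WT and 1920 and 4359 bp in cKO-labelled libraries, and its groups overlapped when only regions of at least 1 kb were kept. Ctss, which trims the invariant chain of MHC class II, and Ctsa also lay above WT, with mean differences under 1000 bp. At Ctsk, encoding the collagen-degrading protease of osteoclasts, the window held 948 and 881 bp in WT and 3341 and 3394 bp in cKO-labelled libraries, but no H3K36me3 region lay in its body and the upstream part of the window overlaps Arnt.

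The longest H3K36me3 domains did not separate. Atp6v1h, the longest in WT, had 61256 and 66539 bp in WT and 41769 and 63359 bp in cKO-labelled libraries. Atp6v0a1 had 50876 and 51120 bp against 48031 and 51531 bp, and Atp6v1a had 35507 and 37811 bp against 35012 and 48812 bp. In each of them the first cKO-labelled library was the lowest of the 4.

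H3K36me3 often began closer to the gene start in the cKO-labelled libraries. Among the 27 genes with a H3K36me3 region in the body in all 4 libraries, the first covered base was nearer the start in both cKO-labelled libraries at 12, where 16.6% of 8512 such genes shared this order, and farther from it at 6, where 29.2% did. At Ctsb the first covered base lay 2637 and 1814 bp from the start in WT and 977 and 339 bp in cKO-labelled libraries. At Ctsz the distances were 2840 and 2830 bp against 1286 and 621 bp, and at Lamp2 they were 1762 and 1925 bp against 1268 and 966 bp. In all 3 genes both cKO-labelled regions began closer to the start than either WT region. At Ctsa, where H3K27ac was gained at the start, the distances were 2302 and 2654 bp against 1018 and 1727 bp. The genes in which the first base lay farther away included Atp6v0d2, Atp6v1c1 and Ctsw. This distance was chosen as a measure after the regions had been seen.

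**Figure D3:**
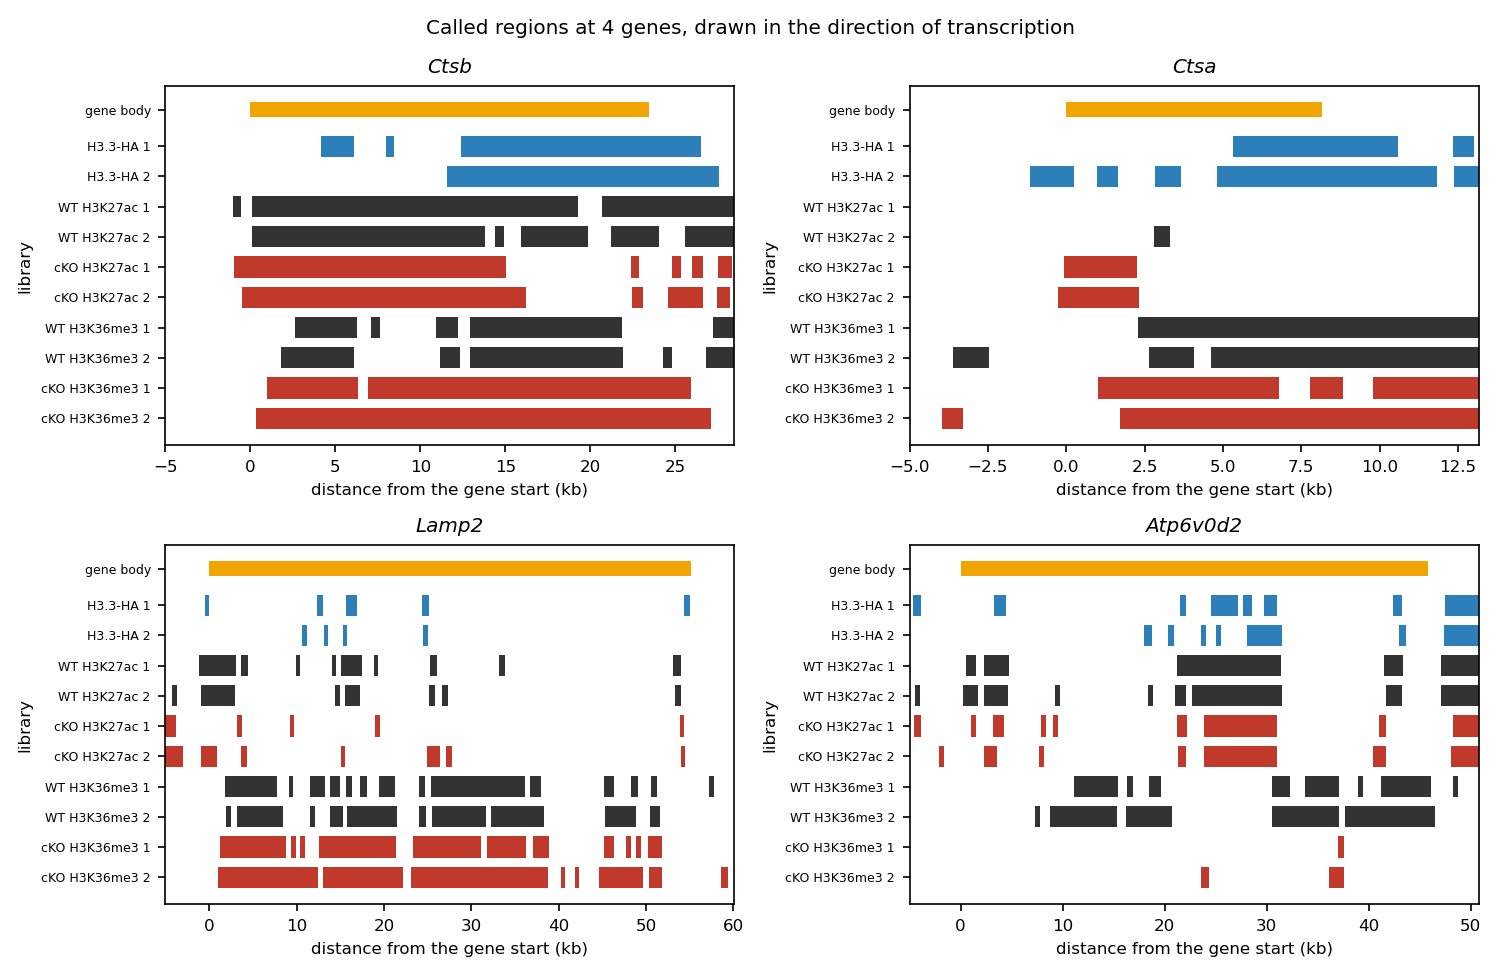
Called regions at Ctsb, Ctsa, Lamp2 and Atp6v0d2, with 1 row per library, by distance from the gene start in kb in the direction of transcription and the gene body on top (H3.3-HA blue, WT black, cKO-labelled red). At Ctsb the cKO-labelled H3K36me3 regions begin closer to the start than the WT regions, and at Atp6v0d2 most WT H3K36me3 regions have no cKO-labelled counterpart.

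Atp6v0d2 showed the opposite order and had the greatest shortfall of H3K36me3 among the 41 genes. It encodes the d2 isoform of the V0 subunit, abundant in osteoclasts and in some macrophages, and lies at chr4:19876841-19922605. H3K36me3 covered 16331 and 26110 bp in WT and 501 and 2352 bp in cKO-labelled libraries, a 14.9-fold shorter mean (log2 difference -3.65, SE 0.66, limma adjusted p = 0.281, 0.0271 to 0.999 over 14 alternatives). Merged over the WT libraries, 3 separate regions of 6586, 4527 and 8735 bp had no counterpart in either cKO-labelled library. The last of them ran past the gene end. Most of this length came from the second WT library. In the first, the pieces there measured 4254 bp, then 632 and 1173 bp, then 501 and 4934 bp. H3K27ac at the same gene was shorter by much less, with 15640 and 16812 bp in WT and 12001 and 11527 bp in cKO-labelled libraries, and its groups overlapped after scaling. Of 5 osteoclast genes, 2 and 2 had an H3K36me3 region in WT and 1 and 0 in cKO-labelled libraries, with summed lengths of 1.90 and 3.12 kb against 0.501 and 0 kb, and their part in the Atp6v0d2 values was not tested. Calcr and Acp5, defining genes of osteoclasts, had no region in any list.

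Ctso and Ctsw were the other genes with shorter H3K36me3 in both cKO-labelled libraries. Ctso had 8963 and 8017 bp in WT and 1628 and 4967 bp in cKO-labelled libraries, and it was also below WT for H3K27ac. Ctsw, a cathepsin of T and NK cells, had 2877 and 2600 bp against 672 and 1895 bp, and its window overlaps Fibp. Neither passed the limma test, with adjusted p = 0.524 for Ctso (0.0188 to 1 over 14 alternatives) and 0.621 for Ctsw (0.0274 to 1 over 15 alternatives).

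**Figure D4:**
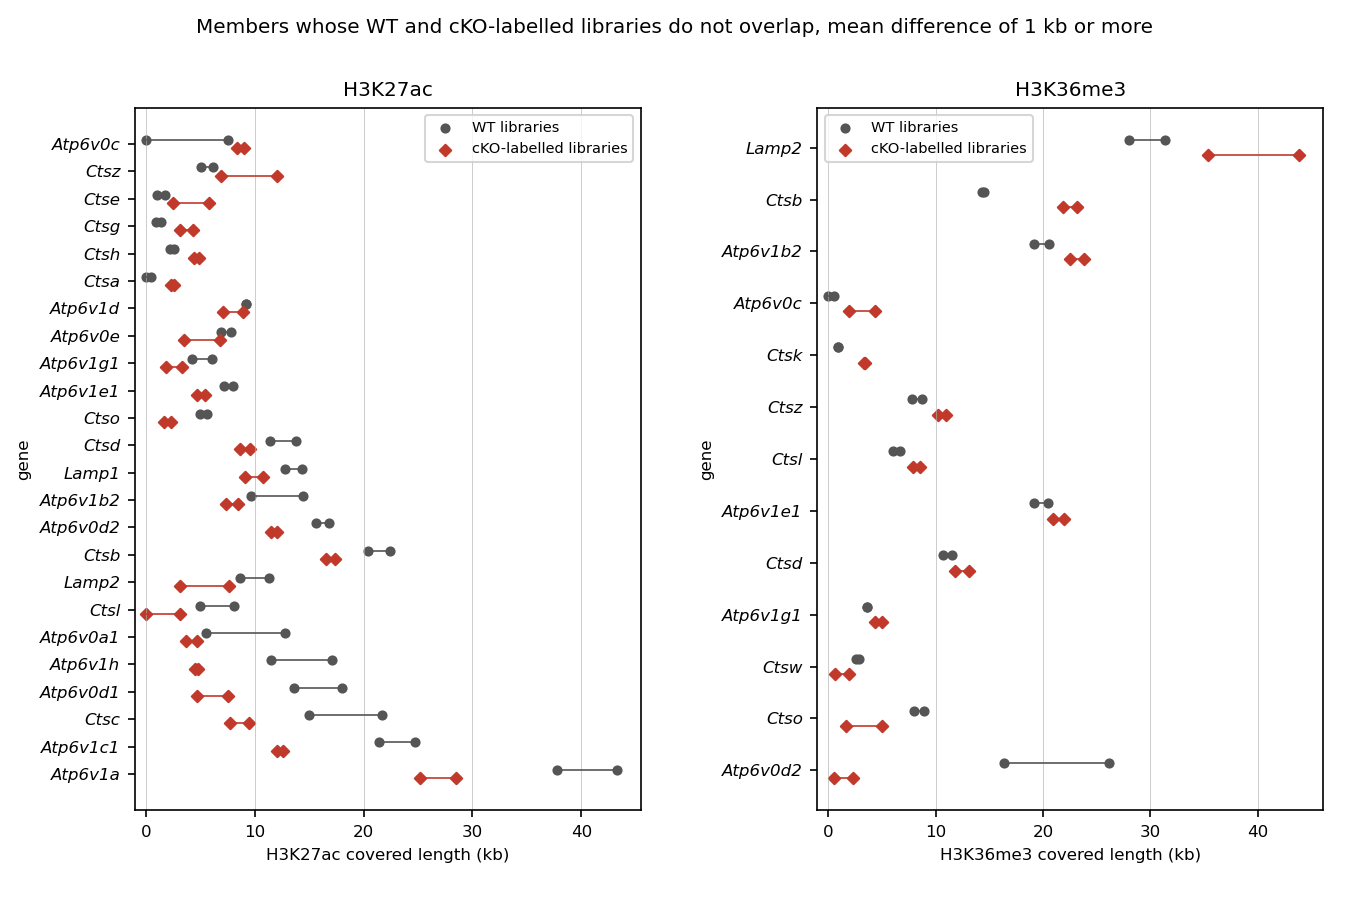
Covered length in kb of each library at the lysosomal genes whose WT (grey circles) and cKO-labelled (red diamonds) libraries do not overlap and whose means differ by at least 1 kb, for H3K27ac (left) and H3K36me3 (right). For H3K27ac 18 of the 24 genes have shorter cKO-labelled values, and for H3K36me3 10 of the 13 have longer ones.

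The order of the groups was then set side by side for the marks. At 7 of 41 genes, Atp6v1b2, Atp6v1e1, Atp6v1g1, Ctsb, Ctsd, Ctsl and Lamp2, both cKO-labelled libraries lay below WT for H3K27ac and above WT for H3K36me3 (1.04% of all genes). At 3 genes, Atp6v0c, Ctsa and Ctsz, they lay above WT for both marks (1.26% of all genes), and at 2, Atp6v0d2 and Ctso, below WT for both (8.71%). The H3K27ac side of the first pattern depends on scaling at Ctsb and Ctsd, which turned, and at Atp6v1b2, Atp6v1e1 and Lamp2, which overlapped.

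**Figure D5:**
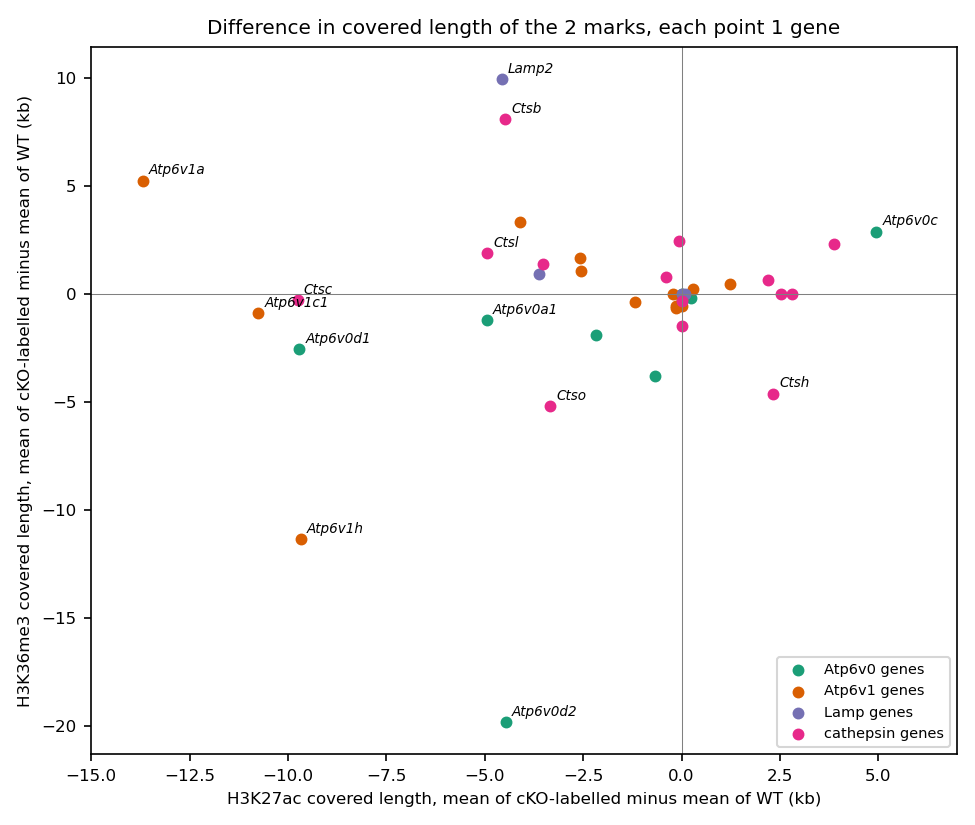
Difference in mean covered length, cKO-labelled minus WT, in kb, for H3K27ac (horizontal) and H3K36me3 (vertical), with 1 point per gene coloured by family. Lamp2 and Ctsb lie at the upper left, with shorter H3K27ac and longer H3K36me3, and Atp6v0d2 lies lowest.

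Other genes of the pathway were compared from lists chosen with earlier results known. Of 50 further lysosomal enzymes, membrane proteins and receptors, H3.3-HA regions were found in both libraries at 44 (44.2% of all genes). For either mark 0 passed limma. Of 49 tested for each mark, 14 had an unadjusted p under 0.05 for H3K27ac and 1 for H3K36me3. Over all genes tested these counts were 3734 of 12767 and 1300 of 11975. The H3K27ac count was near that share. Both cKO-labelled libraries lay below WT at 16 (22.3% of all genes) and above at 11 (10.1%) for H3K27ac. For H3K36me3 they lay above WT at 12 (4.28% of all genes) and below at 7 (20.6%). Of 17 regulators, the MiT/TFE factors and the nutrient-sensing scaffold, 0 passed limma. At an unadjusted p under 0.05 were 5 of 16 tested for H3K27ac and 1 of 17 tested for H3K36me3. H3K27ac of the regulators was above WT at 3 (10.1% of all genes) and below at 7 (22.3%). Its median log2 difference was -0.35, against -0.29 over all genes tested. H3K36me3 was above at 4 (4.28% of all genes) and below at 5 (20.6%), with a median of -0.31 against -0.43. Of 8 cathepsin inhibitors, 4 had no region in any list (Cst6, Stfa1, Stfa2 and Stfa3), and 0 of the rest passed limma, with 0 at an unadjusted p under 0.05 for either mark. The 9 rodent cathepsins of the placenta, close relatives of Ctsl, had no region in any list.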

How the data were processed

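CUT&RUN was analysed from 10 deposited region lists, 2 libraries in each of 5 groups; the 5 IgG control samples were not analysed here as libraries. The authors mapped reads to mm10 with Bowtie2 and called regions with HOMER in each library. Per the file headers HOMER ran in histone style against an IgG directory that differed between the groups, which can move the extent of regions, and the submitters' processing notes also name cutadapt and deepTools. Of the deposited columns only the positions where regions begin and end, in bp, were used. The score column is constant, so read counts, heights and the study's read-based comparison (DiffBind) were not used here. Depth enters only through which regions were called.

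Covered length was computed over GENCODE M21 genes; 0 of 479596 regions passed a chromosome end. The members, lists and motifs were chosen with earlier results of these data known. limma 3.58.1 (R 4.3.3) tested log2(covered bp + 500) for cKO against WT within each mark, with a variance trend and Benjamini-Hochberg adjustment over all genes tested; differences on this scale understate those of genes with little covered length. The scripts were tested on simulated data. Values of every library are given for genes called by limma, genes whose groups do not overlap and differ by at least 1000 bp on average, and the 3 genes of greatest length in H3.3-HA, WT H3K27ac and WT H3K36me3. Alternatives changed the pseudocount (100 or 1000 bp), filter, scaling, region width, window, variance trend and replicate block, or left out each library. Gene ends, first covered bases, zones along the body, promoter and start patterns, the joint order of both marks and an equal number of widest regions per list were added after seeing the data.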

Additional observations from a re-analysis of the deposited data

How the results depend on the processing

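Calls depended on the settings for H3K27ac. Among the lysosomal genes 0 calls became 1 with a mean covered length of at least 500 bp, 5 (3 above and 2 below WT) with regions of at least 1 kb, 6 (3 and 3) within 1 kb of the start, 1 with an equal number of widest regions per list, and 0 to 1 with 1 library left out. Over all genes 0 became 135 with no filter, 968 with the mean of at least 500 bp, 543 when scaled to equal covered length, 1623 with regions of at least 1 kb, 1588 within 1 kb of the start, 514 with equal numbers, and 0 to 975 with 1 library left out. For H3K36me3, leaving out 1 library gave 0 to 13 calls among the lysosomal genes and 0 to 6252 over all genes, no filter gave 51 and the window of 1 kb gave 10. The causes were not tested.

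Scaling moved the H3K27ac median over all genes from -0.29 to 0.19 and that of H3K36me3 from -0.43 to -0.04. The lysosomal H3K27ac median turned to 0.152 when scaled and 0.0271 within 1 kb of the start. That of H3K36me3 turned to 0.42 when scaled, 0.0168 with regions of at least 1 kb, 0.20 within 1 kb of the start and 0.0913 without the first cKO-labelled library, with a range of -0.110 to 0.0913 when 1 library was left out. For H3K27ac the genes above WT numbered 17 when scaled and 7 to 11 with 1 library left out, and those below numbered 7 when scaled, 9 within 1 kb of the start and 21 to 25 with 1 library left out. Gained H3K27ac regions were found at 1 gene within 1 kb of the start, 7 when an overlap of 50% was required and 6 to 14 with 1 library left out, and lost ones at 0, 17 and 13 to 18. For H3K36me3 the genes above WT numbered 22 when scaled, 2 within 1 kb of the start and 12 to 23 with 1 library left out, and those below numbered 1 within 1 kb and 3 to 17. Gained H3K36me3 regions were found at 1 to 5 genes and lost ones at 3 to 10 with 1 library left out, and lost ones at 0 within 1 kb of the start.

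The summed H3K27ac length, -81.1 kb in cKO-labelled minus WT libraries, turned to 28.2 kb when scaled and 3.83 kb within 1 kb of the start, with -114 to -47.9 kb when 1 library was left out. For H3K36me3 it was -12.7 kb and turned to 158 kb when scaled and 1.14 kb within 1 kb of the start, with -73.9 to 48.6 kb when 1 library was left out. The fitted H3K27ac difference turned when scaled at Atp6v0d2 (0.15), Atp6v0e (0.0337), Atp6v1a (0.0203), Atp6v1b2 (0.0361), Atp6v1d (0.39), Atp6v1e1 (0.0165), Ctsb (0.27), Ctsd (0.14) and Lamp1 (0.16). Within 1 kb of the start it turned at Atp6v0a1 (2.32), Atp6v0d1 (0.48), Atp6v1a (0.62), Atp6v1b2 (0.51), Atp6v1d (0.48), Ctsb (0.48), Ctsc (0.21) and Ctsl (0.17). Genes with an H3.3-HA region numbered 10 within 1 kb of the start and 31 to 32 with 1 library left out. Starts within 1 kb of a WT H3K27ac region numbered 25. Covered gene ends numbered 10 to 13 with 1 library left out.

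With the replicate number as a block, 0 genes were called for either mark, among the lysosomal genes and over all genes. Deviations of same-numbered libraries correlated across genes at -0.0021 for H3K27ac and 0.060 for H3K36me3. The labels do not say whether same-numbered libraries shared a preparation, and a low correlation cannot exclude it.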
